A study of Mus musculus with 28 samples.

Results

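The dorsal striatum was compared with the ventral striatum in RNA-seq libraries of wild-type (WT), heterozygous (het) and knockout (KO) mice for *Hdc*, the gene of histidine decarboxylase, which makes histamine. Of the 28 libraries of the series, 15 came from these regions: 7 of dorsal striatum (2 WT, 3 het and 2 KO) and 8 of ventral striatum (3 WT, 3 het and 2 KO). The other 13 libraries came from hypothalamus and motor cortex. All mice were 2 to 3 months old, on a C57Bl/6 background, and het and KO mice carried a germline disruption of *Hdc*, so the loss was neither limited to a cell type nor timed. The paper gives adult males for all of its experiments, while the labels give no sex. Tissue was dissected on ice and frozen, so each library is a mixture of all cells in the piece. The labels do not say whether libraries of a group came from separate animals, and the p-values below measure the spread between these libraries, which may in part be technical. Of 29878 genes listed, the 14247 that exceeded 1 CPM (counts scaled to a common library size) in 2 or more of these libraries were tested, with genotype as a covariate. Every fold change is dorsal over ventral, so positive log2 values mean higher in dorsal striatum, and the value after ± is the standard error. Calls were made where the likelihood ratio test of edgeR gave a p-value under 0.05 after Benjamini-Hochberg adjustment.

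The striatum is the input station of the basal ganglia. Most of its neurons are GABAergic spiny projection neurons. One class carries the D1 dopamine receptor and projects directly to the output nuclei, and the other carries the D2 receptor and acts through the pallidum. The dorsal part receives sensorimotor and associative cortex and dopamine from the substantia nigra. The ventral part (nucleus accumbens and olfactory tubercle) receives limbic cortex, hippocampus and amygdala with dopamine from the ventral tegmental area, and it borders the septum, ventral pallidum and preoptic area. Histamine reaches both from the tuberomammillary nucleus of the hypothalamus, and loss of *Hdc* is used as a model of tic disorders.

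Counts on genes ranged from 3912708 to 5150280 per dorsal library (median 4549063) and from 3536802 to 5064759 per ventral library (median 3990344). By log2 CPM, the nearest library of each was one of the same region in 15 of 15 cases. *Hdc* had 3 and 0 counts in WT dorsal, 33, 17 and 21 in het dorsal and 40 and 31 in KO dorsal libraries. In ventral libraries it had 1, 6 and 0 counts in WT, 28, 20 and 23 in het, and 49 and 51 in KO. The counts thus separated WT from the other genotypes but were highest in libraries labelled KO. Counts per gene do not resolve the disrupted exons, so they are no check of the loss of the intact transcript. Some libraries stood apart. WT dorsal replicate 1 had a TMM scaling factor of 0.778, against 0.915 to 1.14 in the others. In het dorsal replicate 4, 19.1% of reads were assigned to no gene feature, against 10.3% to 16.1% in the others. KO dorsal replicate 8 had 10311 counts of *Ttr*, a choroid plexus gene, against 0 to 258 elsewhere, and KO dorsal replicate 7 had 776 of *Slc17a7*, a cortical transporter, against 7 to 249. KO ventral replicate 8 had both the lowest sum of spiny neuron genes and the highest sum of basal forebrain genes among ventral libraries.

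**Figure D1:**
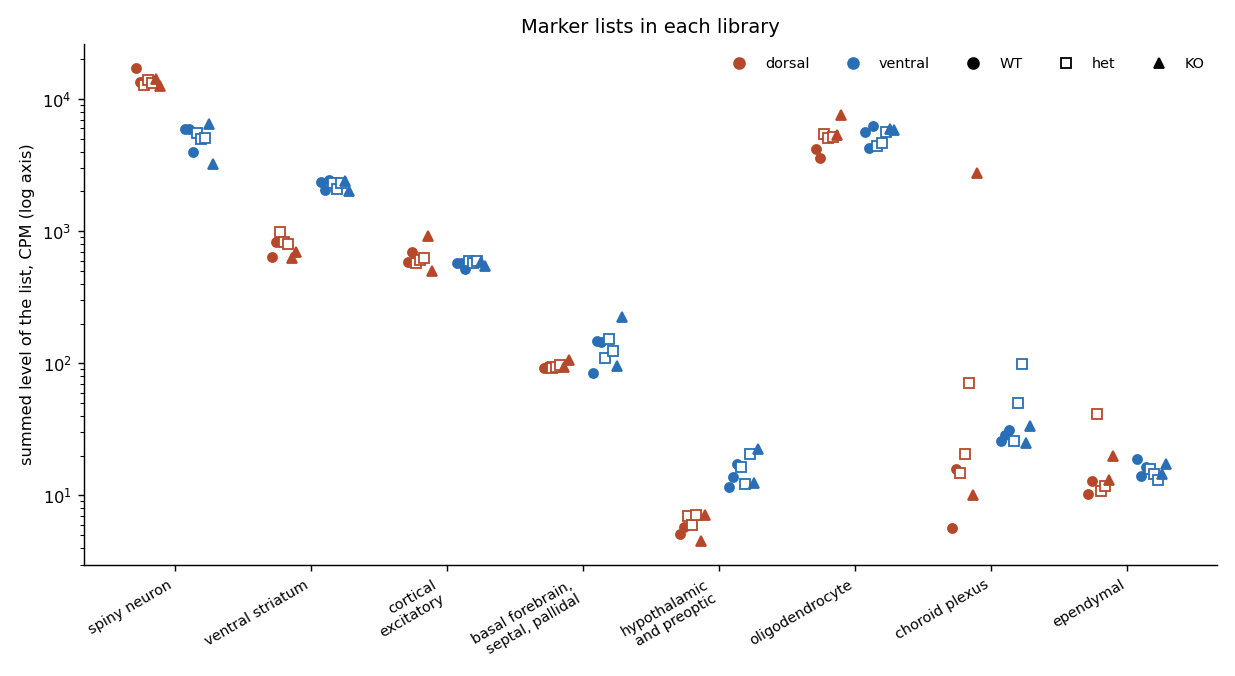
Summed level of 8 marker lists in each library (CPM, log axis), with dorsal libraries in red, ventral in blue and the genotype given by the symbol. Spiny neuron genes summed to 12600 to 17300 CPM in dorsal and 3240 to 6490 in ventral libraries, while 1 KO dorsal library stood apart at 2770 CPM of choroid plexus genes.

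Of the 14247 genes tested, 2099 (14.7%) were higher in dorsal and 2090 (14.7%) higher in ventral striatum, together 29.4%. These shares are the background for the counts of called members in all lists below. A count near 14.7% in a direction says little about a list. With TMM scaling, which centres most genes on no change, the genes tested had a median log2 fold change of -0.018. Scaled by library size alone, the median was -0.17 and the split was 1196 dorsal against 3477 ventral, so the balance of the directions depends on the scaling. A log2 fold change of at least 1 in size was reached by 900 genes (6.32%), which were 377 dorsal genes (2.65% of genes tested) and 523 ventral genes (3.67%). In 855 genes (6%) every dorsal library lay above every ventral library, and in 593 (4.16%) every ventral library lay above every dorsal one, and 1445 genes (10.1%) were both called and without overlap. Where gene models overlap, reads of the neighbours cannot be told apart without a stated strand, and this touches among others *Rarb* (with *Top2b*), *Slc22a3* (with *Plg*), *Baiap3*, *Gabra4*, *Gabra5*, *Gnas*, *Gnal*, *Nnat*, *Oprm1*, *Lypd1*, *Kcnip1*, *Nmb*, *Grin2d*, *Grin3a* and *Micall1*. Small RNA or uncharacterised gene models lie within or across further genes named here, such as *Clspn*, *Calcr*, *Itga5*, *Dach1* and *Plxnc1*. In bulk tissue, fewer cells of a type and less RNA per cell cannot be told apart.

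**Figure D2:**
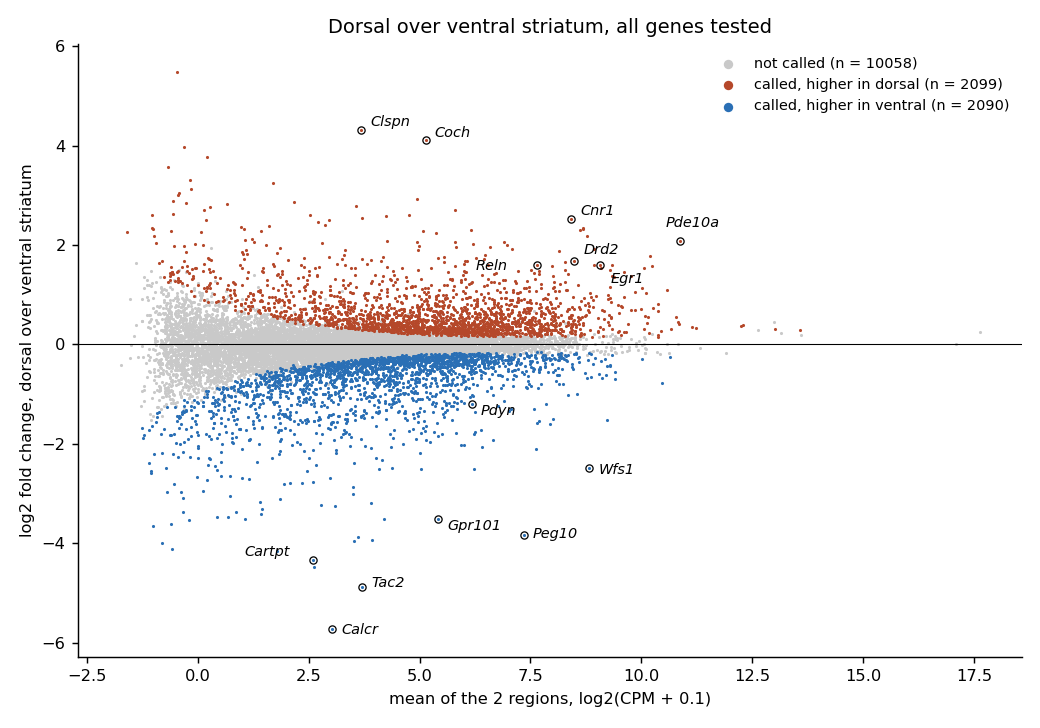
Each point is a gene, with its mean level over both regions on the horizontal axis (log2 of CPM plus 0.1) and its log2 fold change of dorsal over ventral striatum on the vertical axis. The 2099 genes in red and the 2090 in blue passed an adjusted p-value under 0.05, and the ventral side reached -5.73 at *Calcr* while *Clspn* and *Coch* stood above 4 on the dorsal side.

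Genes of the spiny projection neuron were higher in the dorsal striatum nearly throughout the list. Of 18 spiny neuron genes, 17 rose in dorsal, none in ventral, and the median log2 fold change was 1.45 beside -0.018 over all genes. Summed over the list, dorsal libraries held 12600 to 17300 CPM and ventral libraries 3240 to 6490 CPM, and these ranges did not overlap. *Pde10a*, the phosphodiesterase that degrades cAMP and cGMP in these neurons, had 2515 to 3858 CPM (median 2824) in dorsal and 387 to 1106 CPM (median 725) in ventral libraries. The lowest dorsal library was above the highest ventral one, and the log2 fold change was 2.07 ± 0.17 (adjusted p = 2.77e-31). *Scn4b*, a sodium channel beta subunit, rose by 2.34 ± 0.17 and *Rasd2*, the striatal small GTPase Rhes, by 2.33 ± 0.15. *Rgs9*, which shortens dopamine receptor signals, and *Rgs4*, another regulator of G protein signalling, rose by 1.87 ± 0.16 and 2.18 ± 0.14. *Ppp1r1b*, which encodes the dopamine-regulated phosphatase inhibitor DARPP-32, was at 701 to 1173 CPM (median 942) in dorsal and 199 to 449 CPM (median 340.3) in ventral libraries, so both regions carried this defining striatal gene. It was 2.82-fold higher in dorsal, with no overlap. *Gad1*, an enzyme of GABA synthesis found in all GABAergic neurons, was the member that did not pass, at 0.19 ± 0.09 (adjusted p = 0.11), with 266 to 424 CPM in dorsal and 258 to 325 CPM in ventral libraries.

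Both output pathways shared this direction, with 1 exception. Of 9 direct pathway genes, 8 were called dorsal (median 0.75), and of 7 indirect pathway genes 6 were called dorsal (median 0.95). *Drd1*, the D1 dopamine receptor (ENSMUSG00000021478, chr13:54051183-54055705, minus strand), had 173 to 276 CPM (median 212) in dorsal and 56.0 to 150.3 CPM (median 104) in ventral libraries and differed by 1.13 ± 0.14 (adjusted p = 2.14e-14). *Drd2*, the D2 receptor (ENSMUSG00000032259, chr9:49340627-49408177, plus strand), had 473 to 693 CPM (median 539.8) against 104 to 219 CPM (median 177) and differed by 1.68 ± 0.12 (adjusted p = 2.26e-40). For both receptors every dorsal library exceeded every ventral one. *Adora2a*, the adenosine receptor that opposes D2 in the same neurons, rose by 1.38 ± 0.13, *Penk*, the enkephalin precursor, by 0.82 ± 0.13 and *Gpr6*, a constitutively active receptor, by 0.91 ± 0.14. *Tac1*, the substance P precursor of direct pathway neurons, rose by 0.78 ± 0.17, but its libraries overlapped, at 44.0 to 69.2 CPM in dorsal and 20.1 to 57.4 CPM in ventral striatum. *Pdyn*, the dynorphin precursor of the same neurons, went the other way. It had 28.3 to 88.7 CPM (median 35.3) in dorsal and 50.8 to 154 CPM (median 99.6) in ventral libraries, a log2 fold change of -1.19 ± 0.21 (adjusted p = 3.15e-07), with WT dorsal replicate 2 and het dorsal replicate 4 inside the ventral range. The call of *Isl1*, a factor of developing direct pathway neurons, at 0.3 ± 0.12, was lost under several alternatives.

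The dorsal striatum is a mosaic of striosomes, rich in mu-opioid receptor, and the surrounding matrix. Among 9 genes of these compartments 5 were called dorsal and 2 ventral (median 0.42), and neither compartment moved as a block. Of the striosome genes, *Kremen1*, a Wnt co-receptor, was higher in dorsal at 1.62 ± 0.16, and *Oprm1*, the mu-opioid receptor, and *Lypd1*, a modulator of nicotinic receptors, were lower at -0.86 ± 0.15 and -1.35 ± 0.13. Of the matrix genes, *Rasgrp2*, a Ras and Rap exchange factor also called CalDAG-GEFI, was 3.5-fold higher and *Epha4*, an ephrin receptor, 1.62-fold higher in dorsal, each without overlap. *Calb1*, the matrix protein calbindin, was at 0.21 (adjusted p = 0.148).

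Among called genes without overlap and with a mean of at least 5 CPM in the higher region, those with the largest dorsal differences came from several families. *Clspn*, an adaptor of the replication checkpoint (ENSMUSG00000042489, chr4:126556935-126593903, plus strand), had 14.8 to 42.7 CPM (median 21.4) in dorsal and 0.242 to 1.81 CPM (median 1.17) in ventral libraries, a log2 fold change of 4.32 ± 0.28 (adjusted p = 4.41e-70). *Coch*, the matrix protein cochlin (ENSMUSG00000020953, chr12:51593341-51605771, plus strand), had 40.5 to 107 CPM (median 63.0) against 1.92 to 5.88 CPM (median 3.6) and differed by 4.11 ± 0.21 (adjusted p = 5.1e-84). In both genes WT dorsal replicate 1 was highest and het dorsal replicate 4 lowest within dorsal striatum, and no ventral library came near. *Cnr1*, the CB1 cannabinoid receptor, through which spiny neurons and their inputs reduce transmitter release, had 328 to 1019.9 CPM (median 474) in dorsal and 76.4 to 132 CPM (median 96.5) in ventral libraries and a log2 fold change of 2.53 ± 0.18. *Onecut2*, a homeodomain factor, rose by 2.94 ± 0.16, *Acvr1c*, the activin and nodal receptor ALK7, by 2.7 ± 0.18, and *Itga5*, the fibronectin receptor subunit, by 2.54 ± 0.18. *Slc22a3*, a low-affinity transporter that takes up monoamines including histamine, rose by 2.6 ± 0.23, from 0.97 to 2.54 CPM in ventral to 7.44 to 12.4 CPM in dorsal libraries. *Gpx6*, *Abcc12*, *Dmkn*, *Synpo2*, *Lrrc10b*, *Fam198b*, *Ptpn7* and *Gpr139* complete the 15 largest, with log2 fold changes between 2.4 and 3.25.

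The smallest p-value on the dorsal side belonged to *Reln*, the secreted glycoprotein reelin (ENSMUSG00000042453, chr5:21884454-22344702, minus strand), which guides neuronal positioning and modulates synapses in the adult. It had 272 to 338 CPM (median 305) in dorsal and 78.6 to 119.9 CPM (median 100.3) in ventral libraries, a narrow spread in each, and a log2 fold change of 1.6 ± 0.08 (adjusted p = 6.68e-87). *Dach1*, a transcriptional cofactor, followed at 1.96 ± 0.1, with 77.3 to 103 CPM in dorsal and 17.0 to 31.3 CPM in ventral libraries. *Gpr155*, a lysosomal membrane protein, and *Syndig1l*, a relative of a synapse differentiation factor, rose by 1.6 ± 0.09 and 2.0 ± 0.11. Of 8 genes listed as enriched toward the dorsolateral striatum, all 8 were higher in dorsal in every library (median 1.90). The list was chosen with earlier results of these data known, so this count is no separate evidence. *Coch*, *Cnr1*, *Reln*, *Dach1* and *Gpr155* in it are also among the lead dorsal genes named here. The list also holds *Kcnip2*, a subunit of A-type potassium channels.

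**Figure D3:**
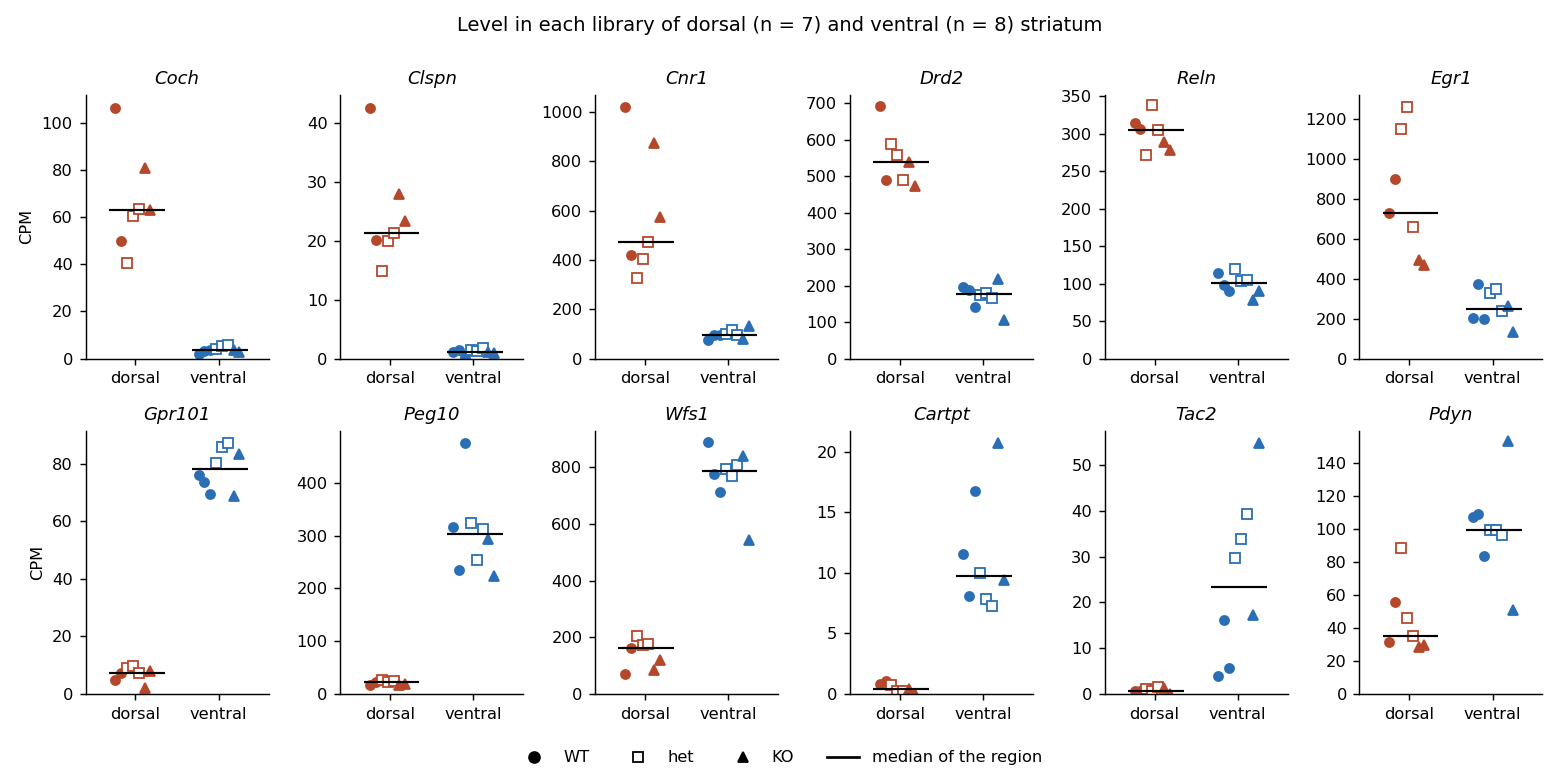
Level in CPM of 12 genes in each library, with dorsal libraries in red and ventral in blue, the genotype given by the symbol and a line at the median of each region. The libraries of the regions do not overlap in 11 of the panels, and in *Pdyn* 2 dorsal libraries lie inside the ventral range.

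By the same rule the largest ventral differences were led by receptors and peptides. *Calcr*, the calcitonin receptor (ENSMUSG00000023964, chr6:3685680-3764714, minus strand), had 0 to 0.95 CPM (median 0.212) in dorsal and 7.09 to 25.3 CPM (median 16.0) in ventral libraries, with at most 5 counts in any dorsal library. Its fitted log2 fold change was -5.73 ± 0.55 (adjusted p = 9.13e-51). *Tac2*, the neurokinin B precursor, had 0 to 1.53 CPM (median 0.689) against 3.85 to 54.8 CPM (median 23.4), at -4.89 ± 0.4, and its ventral libraries spread widely. *Gpr101*, an orphan receptor on the X chromosome (ENSMUSG00000036357, chrX:57496668-57503757, minus strand), had the smallest p-value of all genes, with 1.93 to 9.87 CPM (median 7.37) in dorsal and 68.8 to 87.3 CPM (median 78.1) in ventral libraries and a log2 fold change of -3.52 ± 0.13 (adjusted p = 3.48e-168). *Peg10*, an imprinted gene derived from a retrotransposon (ENSMUSG00000092035, chr6:4747306-4760517, plus strand), had 16.4 to 27.0 CPM (median 21.8) against 223 to 476 CPM (median 303), at -3.83 ± 0.14 (adjusted p = 2.15e-140). The lowest ventral library of *Peg10* was thus far above the highest dorsal one. *Arhgap36*, a regulator of protein kinase A and hedgehog signals, was at -4.49 ± 0.4, and *Slc17a6*, the vesicular glutamate transporter VGLUT2, at -3.96 ± 0.45, with 0 to 3.64 CPM in dorsal and 4.4 to 59.7 CPM in ventral libraries. *Dgkk*, a diacylglycerol kinase, *Baiap3*, a regulator of dense-core vesicles, *Irs4*, an adaptor of insulin receptors, *Stk32b* and *AW551984* lay between -3.1 and -3.94. Among the 10 smallest p-values were also *Unc5d*, a netrin receptor, at -2.51 ± 0.13, *Camk2d*, the delta isoform of calcium/calmodulin-dependent kinase II, at -2.03 ± 0.1, *Tcerg1l* at -2.87 ± 0.2 and the long noncoding RNA *Tunar* at -2.38 ± 0.16.

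Of 15 genes listed as ventral striatal, 13 were higher in ventral striatum (median -1.92). This list too was chosen with earlier results of these data known, so the count is no separate evidence. Its members *Peg10*, *Cartpt*, *Calb2* and *Trhr* are also among the largest ventral differences of these data. *Wfs1*, the endoplasmic reticulum protein wolframin, had 70.4 to 203 CPM (median 163) in dorsal and 545 to 888 CPM (median 785) in ventral libraries, at -2.49 ± 0.15. *Hap1*, the partner of huntingtin, had 49.5 to 123 CPM (median 74.2) against 249 to 383 CPM (median 325), at -2.11 ± 0.14, and *Ahi1*, which binds *Hap1* protein, was at -1.2 ± 0.08. *Nnat*, the imprinted proteolipid neuronatin, was at -1.92 ± 0.19 and *Zcchc12*, a zinc finger coactivator, at -1.2 ± 0.1. All of these were without overlap. *Lmo3* and *Tmem158* went against the list, at 0.56 ± 0.08 and 0.69 ± 0.13, every dorsal library above every ventral one.

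Markers of the tissue around the ventral striatum moved with it in part. Of 8 hypothalamic and preoptic genes tested, 6 were called ventral and none dorsal (median -1.94), and the summed level of the list was 4.5 to 7.17 CPM in dorsal and 11.5 to 22.7 CPM in ventral libraries. The defining genes of hypothalamic neurons were near 0 in both regions, at no more than 2 counts of *Hcrt*, 5 of *Pmch*, 3 of *Oxt*, 4 of *Pomc* and 5 of *Agrp* in any library. The basal forebrain, septal and pallidal list had 3 of 12 genes called dorsal and 5 ventral, and summed to 91.8 to 106 CPM in dorsal and 85.2 to 225 CPM in ventral libraries. *Lhx8*, a factor of basal forebrain cholinergic neurons, was at -1.32 ± 0.2, with 7.35 to 14.6 CPM in dorsal and 16.8 to 39.7 CPM in ventral libraries. Whether neighbouring tissue has a part in the ventral differences was not tested.

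Neuropeptides, the slow transmitters released beside GABA or glutamate, were mostly higher in ventral striatum. Of 30 listed genes 17 could be tested, and 11 were called ventral and 2 dorsal (median -1.19). The dorsal ones were *Penk* and *Tac1*. *Cartpt*, which encodes the peptide CART that dampens dopamine-driven locomotion (ENSMUSG00000021647, chr13:99898489-99901091, minus strand), had 0 to 1.06 CPM (median 0.429) in dorsal and 7.23 to 20.7 CPM (median 9.73) in ventral libraries, a log2 fold change of -4.34 ± 0.41 (adjusted p = 5.59e-39). Dorsal libraries held at most 5 counts of it. *Nts*, the neurotensin precursor, had 0 to 2.83 CPM (median 1.7) against 7.42 to 14.0 CPM (median 10.8), at -2.78 ± 0.25. *Crh*, the corticotropin-releasing hormone, had at most 3 counts in a dorsal library and 2.5 to 5.43 CPM (median 3.41) in ventral libraries, at -3.5 ± 0.51. *Sst*, the somatostatin precursor of an interneuron class (ENSMUSG00000004366, chr16:23889573-23890958, minus strand), differed less but tightly, with 28.7 to 44.0 CPM (median 35.5) against 46.5 to 62.3 CPM (median 53.8) and -0.58 ± 0.08 (adjusted p = 5.37e-12). *Trhr*, the receptor of thyrotropin-releasing hormone, was at -4.16 ± 0.53 with at most 3 dorsal counts. *Npy*, which shares neurons with *Sst*, was at -0.23 ± 0.09 (adjusted p = 0.0493), a call lost under most alternatives. *Gal*, *Pnoc*, *Crhbp* and *Nmb* were also called ventral, at under 6 CPM in every library, and *Pdyn* is described above.

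Several of these peptide genes are textbook targets of the cAMP pathway, which is what dopamine receptors act on, so their promoters were searched for the full cAMP response element TGACGTCA, a palindrome that reads the same on both strands. RefSeq promoter windows (GRCm38.p6, 250 bases before to 50 after each start) were found for 23 of the 30 neuropeptide genes, and 2 of them held the element, *Cartpt* and *Sst*, both higher in ventral striatum. Counted by single windows and not by genes, 588 of all 32851 (1.79%) held it, and the shorter TGACG was in 20.8% on either strand. A gene can have several windows, so the shares by gene given below are the like measure for the neuropeptide genes. The parts before the RefSeq start are shown for these genes because they carry the match. The element is in capitals and the minus strand is written 5′ to 3′.
*Cartpt* (chr13:99900728-99900855): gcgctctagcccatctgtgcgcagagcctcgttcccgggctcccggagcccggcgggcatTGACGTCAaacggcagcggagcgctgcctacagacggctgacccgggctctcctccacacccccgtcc
*Sst* (chr16:23890845-23890952): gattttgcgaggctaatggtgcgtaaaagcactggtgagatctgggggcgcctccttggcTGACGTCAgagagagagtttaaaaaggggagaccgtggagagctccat
The element began at -112 in *Cartpt* and at -48 in *Sst*, counted from the RefSeq start site. Both printed stretches lie inside the gene spans given above, which begin further upstream, so these positions depend on the gene model. By direction, 3.94% of dorsal genes with a window held it, 3.62% of ventral genes and 3.45% of genes not called. A match of letters is a description and not evidence of binding.

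Dopamine genes split by receptor. Of 10 tested, 2 were called dorsal, *Drd1* and *Drd2*, and 5 ventral (median -0.19). *Drd3*, the D3 receptor typical of the limbic striatum, had 0.565 to 4.46 CPM (median 2.47) in dorsal and 4.07 to 9.13 CPM (median 7.15) in ventral libraries, at -1.36 ± 0.27 (adjusted p = 3.01e-06), with an overlap of 1 dorsal library. *Th* and *Ddc*, enzymes of dopamine synthesis, were each higher in ventral, at -0.9 ± 0.22 and -0.9 ± 0.21. The calls of *Slc6a3*, the dopamine transporter, and *Maoa*, a monoamine oxidase, were lost under several alternatives.

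Opioid receptors divided as well. *Oprd1*, the delta receptor for enkephalin, was higher in dorsal at 1.4 ± 0.14, with 18.8 to 27.1 CPM against 5.43 to 12.2 CPM, while *Oprm1* and *Oprl1*, the nociceptin receptor, were lower, the last at -1.14 ± 0.13. *Oprk1*, the dynorphin receptor, was at 0.37 ± 0.15 (adjusted p = 0.0413), a call that several alternatives did not give. Of the endocannabinoid genes, *Dagla*, which makes the ligand 2-arachidonoylglycerol, rose with *Cnr1*, at 0.95 ± 0.11, and *Faah*, which degrades anandamide, was lower in dorsal at -0.65 ± 0.13. Over the 11 opioid and cannabinoid genes the calls were 5 dorsal and 5 ventral, or 3 and 5 scaled by library size alone.

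Serotonin and acetylcholine receptors also went both ways. With 14.7% of all genes called dorsal, the 2 dorsal calls among 12 serotonin genes are near the background. Of 12 serotonin receptor genes, *Htr1b* and *Htr1d*, inhibitory receptors of axon terminals, were higher in dorsal, at 0.61 ± 0.13 and 0.84 ± 0.12. Higher in ventral were *Htr2c* at -1.0 ± 0.09, *Htr4* at -1.44 ± 0.18, *Htr1a* at -1.52 ± 0.26 and *Htr7* at -1.69 ± 0.33 (median of the list -0.31). Of 12 cholinergic receptor genes, 4 were called dorsal and 3 ventral. *Chrm4*, the inhibitory M4 receptor of direct pathway neurons, had 60.8 to 94.9 CPM (median 73.3) in dorsal and 19.8 to 35.3 CPM (median 31.3) in ventral libraries, at 1.33 ± 0.11, without overlap. *Chrm5*, the M5 receptor of dopamine neurons, had at most 7 counts in a dorsal library and 2.75 to 8.73 CPM (median 4.56) in ventral libraries, at -3.32 ± 0.45.

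Among histamine genes, the ones this mouse line was made to study, *Hrh3* was the clearest. It encodes the H3 receptor, which inhibits the release of histamine and other transmitters and is abundant on spiny neurons. It had 110.2 to 158 CPM (median 149) in dorsal and 62.8 to 102 CPM (median 90.1) in ventral libraries, every dorsal library above every ventral one, at 0.71 ± 0.1 (adjusted p = 5.2e-11). Within genotypes its log2 fold change was 0.85 ± 0.18 in WT, 0.55 ± 0.16 in het and 0.77 ± 0.2 in KO. *Hrh1*, the excitatory H1 receptor, was lower in dorsal at -0.99 ± 0.24. The H2 receptor *Hrh2* at -0.08 ± 0.24, the degrading enzyme *Hnmt* at -0.15 ± 0.15 and *Hdc* itself at -0.24 ± 0.19 did not pass.

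Glutamate receptors differed by subunit. Of 18 ionotropic genes, 9 were called dorsal and 4 ventral (median 0.21). The NMDA receptor subunits *Grin1*, *Grin2a*, *Grin2b* and *Grin2c* were higher in dorsal by 0.6 ± 0.07, 0.61 ± 0.14, 0.43 ± 0.08 and 0.63 ± 0.12. *Grin2d* and *Grin3a*, subunits that lower magnesium block and calcium entry, were higher in ventral, at -1.22 ± 0.21 and -1.74 ± 0.14. The related subunit *Grin3b* went the other way and was called dorsal. Of the kainate subunits, *Grik5* rose by 0.66 ± 0.08 in dorsal, and *Grik1* and *Grik4* were at -2.12 ± 0.27 and -1.38 ± 0.15. *Gria1* and *Gria2*, the main AMPA subunits, were at -0.03 ± 0.07 and 0.21 ± 0.11 and did not pass. Of 7 metabotropic genes 3 were called dorsal, among them *Grm4* at 0.89 ± 0.11 and *Grm5* at 0.43 ± 0.08, and *Grm2* was called ventral at -1.31 ± 0.3.

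GABA-A receptor subunits leaned to the ventral striatum, with 10 of 14 called ventral and 3 dorsal (median -0.49). The dorsal calls were *Gabrd* and *Gabra4*, which form tonic receptors outside synapses, at 0.98 ± 0.12 and 0.93 ± 0.12, and *Gabrg3* at 0.4 ± 0.1. *Gabrd* had 31.9 to 36.0 CPM in dorsal and 11.8 to 24.2 CPM in ventral libraries. The largest ventral values were those of *Gabrq* and *Gabre*, the theta and epsilon subunits, at -3.25 ± 0.25 and -3.48 ± 0.6, the last with at most 3 dorsal counts. *Gabrg1* was at -2.0 ± 0.16, *Gabra3* at -1.37 ± 0.11 and *Gabra5* at -1.09 ± 0.1.

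Second messenger genes of dopamine signalling were mostly dorsal. Of 36 cAMP and G protein genes, 20 were called dorsal and 11 ventral (median 0.41). *Adcy5*, the main striatal adenylyl cyclase, had 1260.5 to 1619 CPM (median 1394) in dorsal and 443 to 767 CPM (median 684) in ventral libraries, at 1.13 ± 0.11. *Gnal* and *Gng7*, subunits of the G protein that couples D1 and adenosine receptors to *Adcy5*, rose by 0.69 ± 0.1 and 0.96 ± 0.12. All dorsal libraries of these 3 genes lay above all ventral ones. *Pde1b* and *Pde7b* rose by 1.38 ± 0.12 and 1.07 ± 0.1, whereas *Pde1a*, a calmodulin-dependent phosphodiesterase like *Pde1b*, was lower, at -2.5 ± 0.17, with 14.3 to 40.9 CPM against 96.6 to 166 CPM. *Adcy8*, a calcium-stimulated cyclase, was at -1.41 ± 0.21. *Gnas*, the stimulatory subunit used in most other tissues, was at -1.78 ± 0.16, but its annotation overlaps another gene model and its counts are uncertain.

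Potassium channels, which set the low resting potential and delayed firing of spiny neurons, had 26 of 50 genes called dorsal and 12 ventral (median 0.33). Every dorsal library was above every ventral one in 18 of the 50, beside 6% of all genes. The reverse held in 5, beside 4.16% of all genes. The A-type channel *Kcnd2*, with its partners *Kcnip2* and *Kcnab1*, rose by 0.9 ± 0.07, 0.9 ± 0.11 and 1.47 ± 0.13, while its paralogue *Kcnd3* was lower, at -1.25 ± 0.1. Inward rectifiers *Kcnj2* and *Kcnj4* rose by 0.82 ± 0.11 and 0.94 ± 0.12, the leak channel *Kcnk2* (TREK-1) by 1.4 ± 0.12, the M-current subunit *Kcnq3* by 0.84 ± 0.08, *Kcnh4* by 1.4 ± 0.13 and *Kcna4* by 1.06 ± 0.12. On the ventral side stood *Kcnc4* and *Kcnc2*, channels of fast-spiking cells, at -1.91 ± 0.2 and -1.78 ± 0.27, and *Kcnip1* at -1.52 ± 0.18. *Hcn2*, a pacemaker channel, was higher in dorsal at 0.49 ± 0.12.

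Transcription factors of the striatum and basal forebrain had 15 of 44 genes called dorsal and 11 ventral, with a median of 0.13 that turned to -0.03 when scaled by library size alone. *Foxp1* and *Bcl11b* (CTIP2), which specify spiny neurons, rose by 1.46 ± 0.14 and 1.1 ± 0.11 without overlap, and *Foxp2* was at 0.27 ± 0.14 and did not pass. *Meis2*, *Ebf1*, *Dlx6*, *Pbx3* and *Ikzf1* were also called dorsal, between 0.45 and 0.58. Ventral calls included *Lhx6* and *Nkx2-1*, factors of interneurons and pallidal cells from the medial ganglionic eminence, at -1.24 ± 0.14 and -0.65 ± 0.19, and *Nr2f2* at -1.3 ± 0.34. Genes of retinoic acid signalling, which shapes the lateral striatum, went both ways, receptors included. *Rxrg* had 58.5 to 172 CPM (median 70.2) in dorsal and 14.9 to 35.8 CPM (median 18.4) in ventral libraries, at 2.06 ± 0.2, *Rarb* was at 0.92 ± 0.15 and the binding protein *Crabp2* at 2.32 ± 0.38. *Cyp26b1*, which inactivates retinoic acid, was at -2.42 ± 0.32, with 0.283 to 4.69 CPM against 3.57 to 15.1 CPM. The receptor *Rara* and *Rdh10*, an enzyme of retinoic acid synthesis, were called ventral too, at -0.66 ± 0.18 and -0.74 ± 0.21. Of 16 retinoid genes 6 were called dorsal and 3 ventral (median 0.32). Beside 14.7% of all genes called in each direction, the ventral count is near the background.

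Guidance molecules carried more ventral than dorsal calls, 19 against 10 of 41 (median -0.23). *Nrp2*, the co-receptor of class 3 semaphorins, had 3.67 to 9.43 CPM (median 5.31) in dorsal and 29.0 to 44.4 CPM (median 34.6) in ventral libraries, at -2.49 ± 0.15 (adjusted p = 1.78e-69). *Plxnc1*, the receptor of *Sema7a*, was lower at -1.93 ± 0.12, and its ligand *Sema7a* was higher at 1.75 ± 0.15, both without overlap. *Plxnd1*, a receptor of *Sema3e* that keeps thalamic inputs to direct pathway neurons in order, was at 1.32 ± 0.11 and *Sema3e* at 0.75 ± 0.17. *Ephb6*, an ephrin receptor without kinase activity, was at 1.56 ± 0.16, *Epha5* at -1.1 ± 0.12, *Plxna4* at -1.01 ± 0.08 and *Sema3c* at -1.31 ± 0.18.

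Immediate early genes, which are transcribed within minutes of neuronal activity, had 10 of 14 members higher in dorsal and none in ventral (median 0.85). *Egr1* had 469 to 1264 CPM (median 728) in dorsal and 133 to 375 CPM (median 249) in ventral libraries, at 1.59 ± 0.16 (adjusted p = 4.29e-20). It was the single member without overlap, and both regions spread widely. *Arc*, which remodels synapses, had 40.8 to 166 CPM (median 111) against 13.9 to 45.7 CPM (median 29.7), at 1.69 ± 0.16. *Egr2*, *Egr4*, *Npas4* and *Nr4a1* were at 1.9 ± 0.33, 1.59 ± 0.22, 1.37 ± 0.15 and 1.26 ± 0.29, with overlapping libraries. *Fos*, the classic gene of this class, was at 0.32 ± 0.26 and did not pass, and 2 het dorsal libraries had the highest *Egr1* values.

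Interneuron genes did not move as a group, with 5 of 16 called dorsal and 6 ventral (median -0.06). The cholinergic genes *Chat* and *Slc17a8* were slightly higher in dorsal, at 0.38 ± 0.14 and 0.64 ± 0.17, and the call of *Chat* was lost under several alternatives. *Pthlh*, a hormone gene of one interneuron class, was at 1.2 ± 0.29, and *Pvalb*, of the fast-spiking class, at 0.45 ± 0.29 (adjusted p = 0.273). *Calb2*, the calretinin gene of another class and of olfactory and septal cells, had 0.741 to 2.54 CPM (median 1.38) in dorsal and 14.5 to 48.4 CPM (median 17.5) in ventral libraries, at -3.88 ± 0.29.

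**Figure D4:**
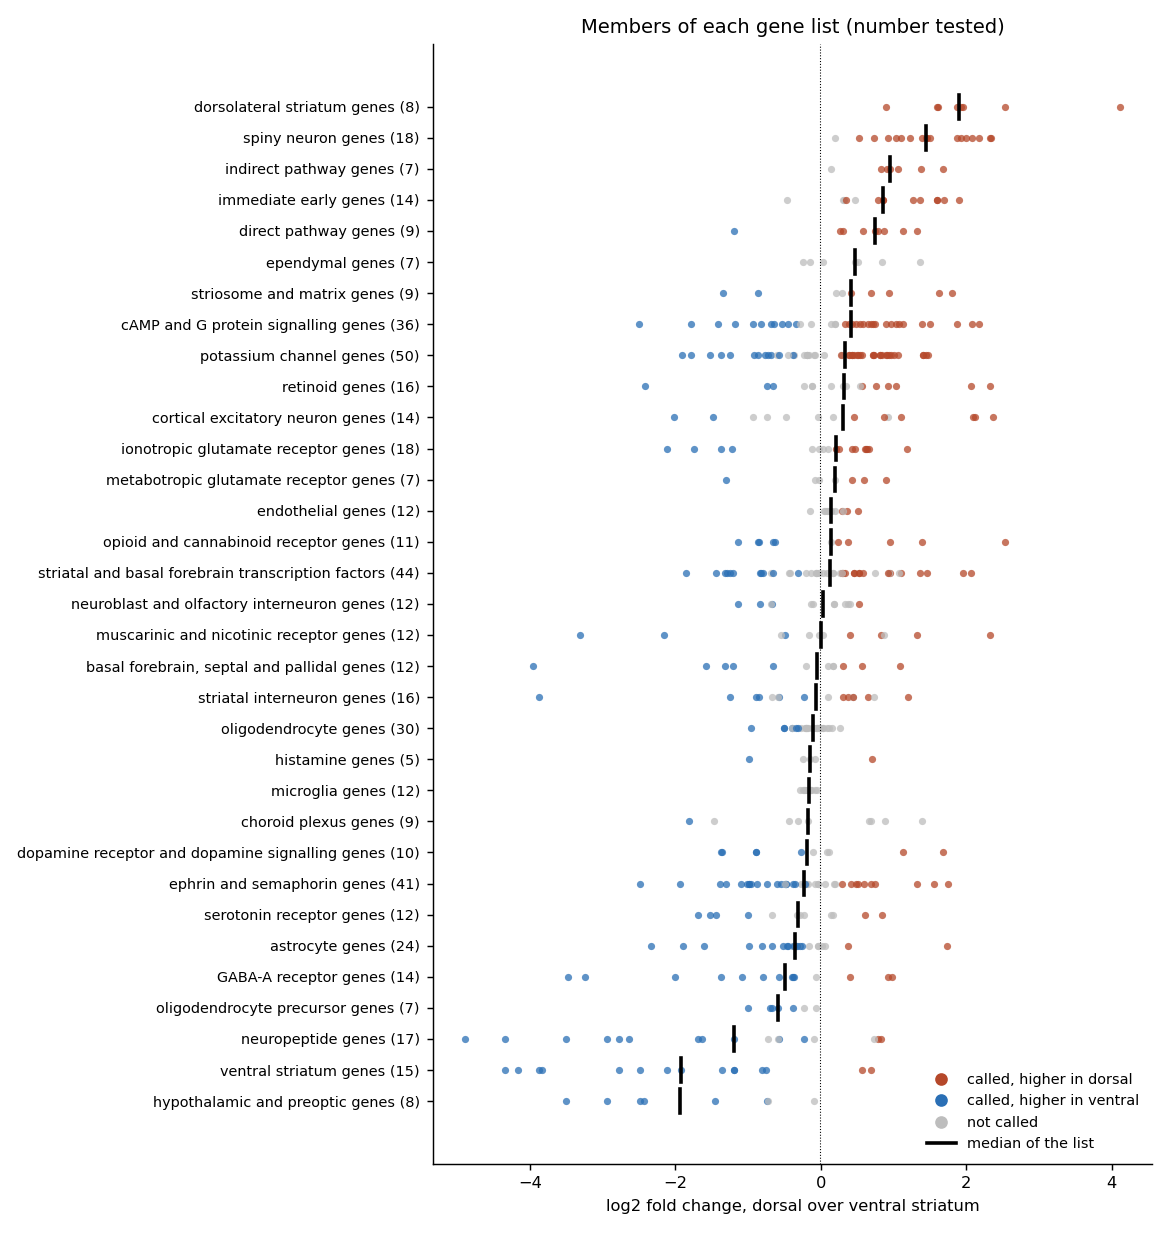
Log2 fold change of dorsal over ventral striatum for each member of 33 gene lists, ordered by their medians (black bars), with the number of members tested in brackets. Dorsolateral and spiny neuron genes sit at the top with medians of 1.90 and 1.45, ventral striatum and hypothalamic genes at the bottom with -1.92 and -1.94. The lists were chosen with earlier results of these data known, so their order is no separate evidence.

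Astrocyte and oligodendrocyte precursor genes leaned to the ventral striatum, while microglia genes did not pass. Of 24 astrocyte genes, 15 were called ventral and 2 dorsal (median -0.36). *Slc1a2*, the main glutamate transporter, was higher in dorsal at 0.37 ± 0.08 and *Slc1a3*, the other glial glutamate transporter, lower at -0.38 ± 0.06, each without overlap. *Slc6a11*, a GABA transporter, *Agt*, the angiotensin precursor, and *Itih3* were lower at -1.61 ± 0.22, -2.33 ± 0.38 and -1.89 ± 0.28. Of 7 oligodendrocyte precursor genes 5 were called ventral (median -0.60), among them *Pdgfra*, the growth factor receptor that marks these cells, with 26.8 to 37.8 CPM (median 30.9) against 41.5 to 54.7 CPM (median 50.8) and -0.67 ± 0.08. Of 12 microglia genes none was called (median -0.17), though scaled by library size alone 7 were called ventral. Of 12 endothelial genes 3 were called dorsal (median 0.14), and scaled by library size alone none was. Cortical excitatory genes had 6 of 14 called dorsal and 2 ventral, the last near the 14.7% of all genes called ventral. The calls of *Slc17a7* at 2.09 ± 0.64 and *Neurod2* at 2.37 ± 0.82 were lost under several alternatives. Among them was leaving out KO dorsal replicate 7 or WT dorsal replicate 2, in which both genes were highest.

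Oligodendrocyte genes, the group of main interest in this mouse line, were called ventral in 6 of 30 cases and dorsal in none (median -0.11). With 14.7% of all genes called ventral, that count is near the background and says little about the list. That value mixed different pictures in the genotypes. In WT mice all 30 genes were lower in dorsal than in ventral libraries, 16 of them called (6.82% of genes tested were called ventral in WT), with a median of -0.54. In het and KO mice no gene of the list was called ventral, *Mobp* in het and *Enpp2* in KO were called dorsal, and the medians were 0.06 and 0.02. *Enpp2*, which makes lysophosphatidic acid, is also strongly expressed in choroid plexus. Of 9 choroid plexus genes 6 were called dorsal in KO as well, and KO dorsal replicate 8 held 933 CPM of *Enpp2*, against at most 172 in the other dorsal libraries, and 2770 CPM of the choroid plexus list, against at most 71.2. Their part in the KO call was not tested. The summed level of the oligodendrocyte genes was 4192 and 3586 CPM in the WT dorsal libraries, 5432, 5087 and 5166 in het dorsal and 5344 and 7568 in KO dorsal libraries. In ventral striatum it was 5672, 4264 and 6299.6 CPM in WT, 4424, 4682 and 5669 in het and 5969 and 5848 in KO. The 2 WT dorsal libraries were thus the lowest of all 15, and ventral libraries of the genotypes overlapped. *Mbp*, the myelin basic protein, had a log2 fold change of -0.35 ± 0.2 in WT, 0.22 ± 0.17 in het and 0.09 ± 0.21 in KO. *Mobp*, another compact myelin protein, had -0.42 ± 0.15, 0.41 ± 0.13 and 0.39 ± 0.16, and *Mog*, a surface protein of the myelin sheath, -0.53 ± 0.19, 0.14 ± 0.16 and -0.02 ± 0.19.

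The difference between genotypes in this contrast did not pass for any oligodendrocyte gene after adjustment. Under alternatives 1 gene passed for KO against WT (with the cortical covariate, or without KO dorsal replicate 7) and 2 passed for het against WT (without WT ventral replicate 2). At an unadjusted p under 0.05, 17 of the 30 differed between KO and WT and 19 between het and WT, all in the same direction, beside 3.56% and 3.84% of all genes tested. The median difference of KO from WT was 0.58 and ranged from 0.44 to 0.83 over 25 alternatives. The count at an unadjusted p under 0.05 for KO against WT depended more on the model. It was 3 with the choroid plexus covariate, 7 with the replicate number as a block and 24 when scaled by library size alone. The 30 genes were measured in the same libraries, so such counts do not come from independent members. For *Mobp* the difference was 0.83 ± 0.2 for het against WT (adjusted p = 0.229) and 0.8 ± 0.22 for KO against WT (adjusted p = 0.383). Without KO dorsal replicate 8, which carries the choroid plexus genes, 3 of the 30 differed at that level, without WT ventral replicate 3 it was 7 and without WT dorsal replicate 2 it was 8. For het against WT it was 8 without WT dorsal replicate 2. WT dorsal striatum had 2 libraries, and the list was chosen with the study's interest in myelin known, so it is not independent evidence.

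The contrast of the regions was also fitted within each genotype. Within WT, 1106 genes (7.76%) were called dorsal and 971 (6.82%) ventral. Within het these were 1041 (7.31%) and 918 (6.44%), and within KO 800 (5.62%) and 714 (5.01%). Leaving out WT dorsal replicate 1 lowered the WT count of both directions from 2077 to 1067, and leaving out KO dorsal replicate 7 or KO ventral replicate 8 lowered the KO count from 1514 to 860 or 886. The genotypes share no library, so each is a repeat of the others. Of the 1106 dorsal genes of WT, 1084 (98%) had the same sign in KO and 645 were called there, out of 800 dorsal calls in KO. Of the 971 ventral genes of WT, 915 (94.2%) had the same sign in KO, 500 were called ventral, out of 714, and 1 was called dorsal. For het these shares were 98.6% and 94.9%. Over all genes tested 70.4% had the same sign in WT and KO, and 71.1% in WT and het. In all, 1017 genes were called in 1 direction within each of the 3 genotypes, 581 dorsal and 436 ventral.

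The lead genes had the same direction in the 3 genotypes. Their libraries did not overlap between regions, which fixes the sign within each genotype, so this is no separate evidence. *Reln* differed by 1.63 ± 0.14 in WT, 1.48 ± 0.12 in het and 1.75 ± 0.15 in KO, *Drd2* by 1.75 ± 0.22, 1.66 ± 0.2 and 1.64 ± 0.25, and *Gpr101* by -3.56 ± 0.25, -3.25 ± 0.18 and -4.0 ± 0.27. *Coch* differed by 4.69 ± 0.36, 3.46 ± 0.29 and 4.48 ± 0.39, and its difference between het and WT, at -1.23 ± 0.46, did not pass (adjusted p = 1). Tested directly, the dorsal over ventral difference departed from WT in 1 gene for KO (0.00702% of genes tested) and in 0 genes for het. At an unadjusted p under 0.05 the counts were 507 (3.56%) and 547 (3.84%), and edgeR's quasi-likelihood test and the DESeq2 Wald test called 0 in both comparisons. *Ttr*, the choroid plexus gene above, was among the next smallest p-values for KO at 10.28 ± 2.25 (adjusted p = 0.307), and it rests on KO dorsal replicate 8. Without KO dorsal replicate 7 the count for KO was 26, without KO ventral replicate 8 it was 0, and without WT dorsal replicate 2 the count for het was 15. For het the smallest p-values were those of *Pls1* at 1.21 ± 0.29, *Mobp* and *Micall1* at 1.14 ± 0.28, with an adjusted p of 0.229 for *Pls1*.

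**Figure D5:**
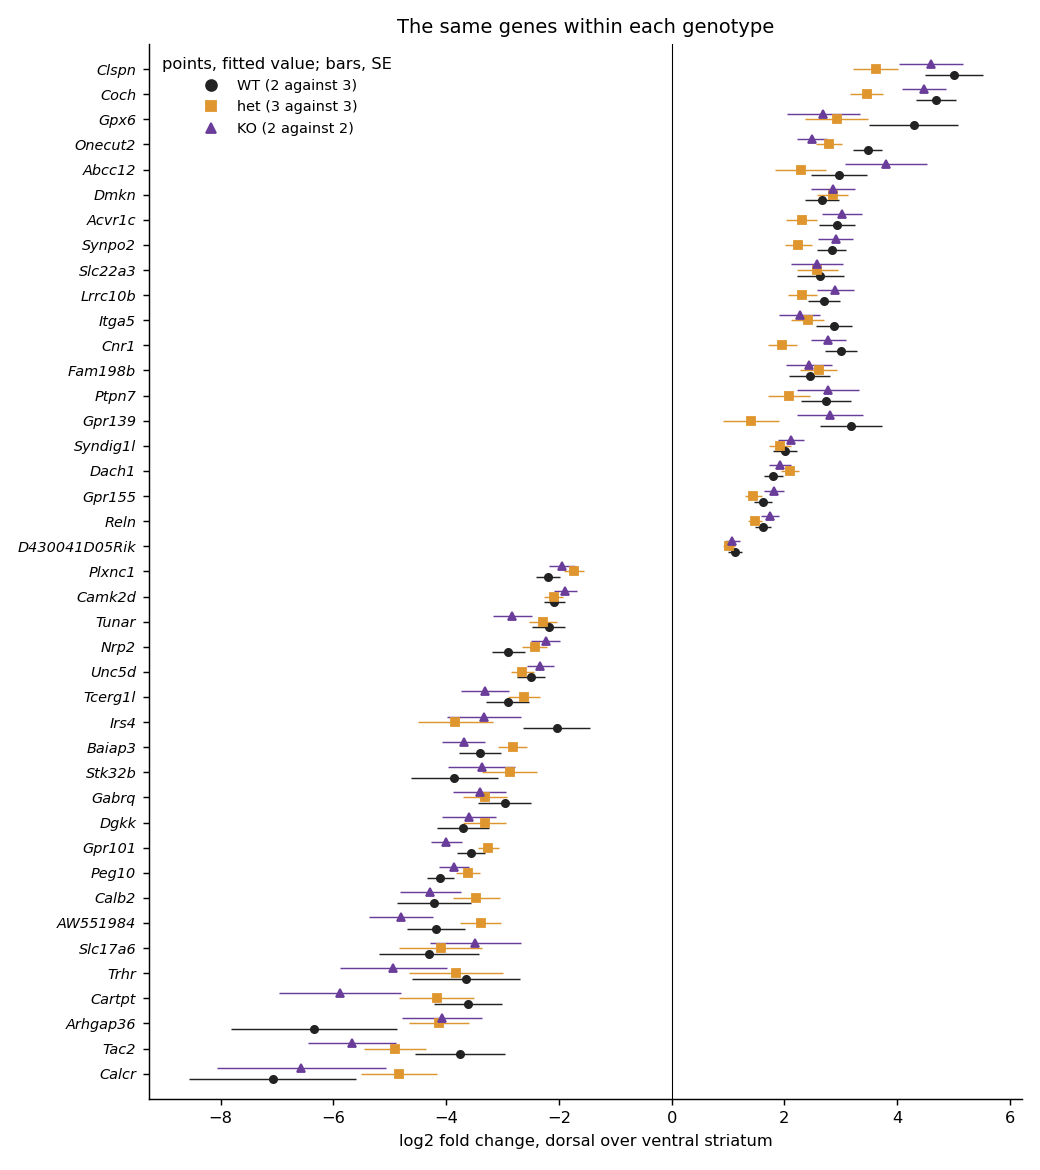
Log2 fold change of dorsal over ventral striatum, with its standard error, fitted within WT (black), het (orange) and KO (purple) libraries for the genes with the largest differences or smallest p-values. All values lie on the same side of 0 in the 3 genotypes, from *Clspn* at the top to *Calcr* at the bottom. In these genes no dorsal library overlaps a ventral one, so the shared sign follows from that and is no separate evidence.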

How the data were processed

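RNA was amplified from 5 ng with a kit that does not mark strand, and sequenced as single-end 50-base reads. The authors trimmed reads (Trimmomatic 0.32), removed rRNA reads (Bowtie2 2.2.3), aligned to GRCm38 with Ensembl 75 (STAR 2.3.1z8) and counted unique reads on exons (HTSeq 0.6.1p1, union mode). They deposited raw counts per gene and library. The strand setting of the counting is not given in the sources used here, so overlapping genes may share reads. Symbols came from GENCODE M21 (28758 of 29878 genes).

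Counts of 15 libraries were tested with edgeR 4.0.16 (R 4.3.3), TMM scaling, glmFit and glmLRT, region plus genotype. CPM use TMM-scaled library sizes. A model of 6 groups gave the differences within genotypes and between them. Groups came from GEO's labels. The quasi-likelihood test and DESeq2 1.42.0 were alternatives, and steps were tested on simulated data. Named genes were the 15 largest differences (called, without overlap, at least 5 CPM in the higher region) and 10 smallest p-values per direction, the 5 smallest p-values per genotype contrast, and list members. Some of these genes are not reported here. The members and lists were chosen with earlier results of these data known. Libraries of a group differed beyond sampling noise in 12 of 12 pairs (chi-square per degree of freedom from 2.07 to 13.3). Intervals and errors cover these libraries only.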

Additional observations from a re-analysis of the deposited data

How the results depend on the processing

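The counts of 2099 dorsal and 2090 ventral genes stayed within 1.5 times under the quasi-likelihood test, DESeq2, its size factors, other filters, all 28 libraries in the fit, covariates for cortical or choroid plexus genes, and without libraries 4b, 7b and 8b (het dorsal 4, KO dorsal 7 and KO dorsal 8), an alternative chosen after seeing the data that gave 1755 and 1749. They moved under scaling by library size alone to 1196 and 3477 (25.6% dorsal in place of 50.1%), with WT libraries only to 1122 and 1034, and with a log2 fold change of at least 1 in size to 377 and 523. Without single libraries the dorsal count ranged from 1865 to 2185 and the ventral count from 1879 to 2158. Within WT that range was 1067 to 2330, within het 1430 to 2163 and within KO 860 to 1752. The count of genes that differed between KO and WT, 1 as reported, was 0 by quasi-likelihood, 0 by DESeq2, 0 with the choroid plexus covariate, 5 with the cortical covariate, and 0 to 26 without single libraries. For het against WT it was 0, became 2 with the cortical covariate, and was 0 to 15 without single libraries. The cause was not tested. The difference of *Ttr* between KO and WT turned from 10.28 to -1.09 with the choroid plexus covariate, which is built from genes like it. Genes that did not pass changed sign in places. With WT libraries only, *Calb1* was at -0.060, *Pvalb* at -0.18, *Fos* at -0.10, *Hnmt* at 0.069 and *Gria1* at 0.081. With WT and het libraries only *Gria1* was at 0.015, without libraries 4b, 7b and 8b at 0.047 and *Hnmt* at 0.016, and with the replicate block *Hrh2* was at 0.015. Without single libraries *Gria1* ranged from -0.045 to 0.011 and *Hrh2* from -0.24 to 0.046. The libraries share replicate numbers across regions. Over 7 pairs with the same number the correlation of their deviations from group means was 0.00833 to 0.0902, none over 0.1. Its mean was 0.0411, against -0.024 over other pairs of the same genotype. With 2 or 3 libraries per group this cannot tell whether the numbers mark animals, and they were not read as a pairing. With the replicate block, 2026 dorsal and 2042 ventral genes were called and 2 genes differed between KO and WT. Genes at or under 1 CPM in all but 1 library were not tested at this depth.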

Other observations

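The X chromosome carried a larger share of ventral differences than any autosome. Of 482 X-linked genes tested, 47 (9.75%) were higher in ventral striatum with a log2 fold change of at least 1 in size, beside 2.53% to 5.19% on the 19 autosomes and 3.67% over all genes. On the dorsal side 5 X-linked genes (1.04%) reached that size, beside 1.15% to 4.69% on autosomes. *Gpr101*, *Arhgap36*, *Dgkk*, *Gabrq* and *Irs4* are among the 47. By the paper's account the mice were male. The pattern on the X chromosome was seen in these data and has no test.

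Imprinted genes have 1 parental copy silent in at least some tissues, and counts per gene do not tell the copies apart. The list of them was drawn up after the values of *Peg10*, *Calcr* and *Nnat* had been seen, so its count is a description. Of 37 tested, 23 were called ventral, 2 dorsal and 12 not at all (median -0.61). *Dio3*, which inactivates thyroid hormone, was at -3.47 ± 0.7 with at most 2 counts in a dorsal library, *Magel2* at -2.82 ± 0.36, *Asb4* at -2.68 ± 0.43 and *Nap1l5* at -1.49 ± 0.11. The dorsal ones were *Ppp1r9a* at 0.69 ± 0.1 and *Cobl* at 0.79 ± 0.07. *Nnat* lies within *Blcap*, *Nap1l5* overlaps *Herc3* and *Gnas* overlaps another gene, so reads of these cannot be told apart.

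The 13 libraries of the other regions gave a second reading of the same genes. Hypothalamus (8 libraries) was compared with motor cortex (5 libraries) over 14477 genes. Of 514 genes that were higher in ventral striatum with a log2 fold change of at least 1 in size and were tested in both, 353 (68.7%) were higher in hypothalamus and 80 (15.6%) in cortex. Of 322 such dorsal genes, 56 (17.4%) were higher in hypothalamus and 193 (59.9%) in cortex. Over all 13855 genes tested in both comparisons these shares were 27% and 24.4%. The median log2 fold change of hypothalamus over cortex was 1.15 for the ventral genes, -0.86 for the dorsal genes and 0.04 over all. These libraries share no sample with the striatal ones, though the labels do not say whether they share animals.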
